A study of Mus musculus with 4 samples.

Results

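Elastic fibre genes were examined in OP9 cells, a mouse stromal line used to support blood progenitors in culture, with and without a Wnt3A transgene. The set held 10 genes: the fibulins Efemp1, Efemp2, Fbln1, Fbln2 and Fbln5, the fibrillins Fbn1 and Fbn2, elastin (Eln), and the microfibril-associated Mfap4 and Mfap5. They were found by gene symbol, or by the current symbol of the transcript a probe was designed on, and were represented by 13 of the 41174 probes of the array. Fbln1, Fbln5 and Fbn1 had 2 probes each and the other genes 1 probe.

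Elastic fibres give stretch and recoil to the matrix. Fibrillins polymerise into microfibrils, tropoelastin is laid down on them and cross-linked by lysyl oxidases, and short fibulins guide the deposition. Fibrillin microfibrils also hold latent TGF-beta and BMPs, so they store growth factors as well as bearing load. Wnt3A is a secreted ligand of the canonical pathway, in which beta-catenin acts with TCF/LEF factors on target genes.

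Each of 4 samples was hybridised alone to an Agilent mouse array in 1 colour. The 2 Control samples were OP9 cells that carried the retroviral vector LZRS-IRES-GFP alone, and the 2 Wnt3A samples were OP9 cells with the same vector containing the Wnt3A gene. Both groups thus share the vector with its GFP reporter, and the labels do not say whether cells were sorted or cloned. The labels call the samples separate replicates without saying whether they were separate cultures, so the spread between them may be partly technical. Before Cy3 labelling the RNA went through global PCR amplification. In bulk RNA, fewer cells of a type and less RNA per cell cannot be told apart. The 10 genes were chosen with earlier results of the Control and Wnt3A comparison known, and were chosen by their measured differences between these arrays, most of all that of Efemp1, so the values below describe these arrays and the p-values over these genes are not independent evidence.

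Values are linear intensities from the deposited table, in which the median of every array is 1. A probe was taken as detected above a floor estimated for each array, which lay between 0.0533 and 0.0729. Between 80.7% and 83.7% of spots lay above it. For comparisons, intensities were taken to log2 after division by the 75th percentile of the array, and differences are Wnt3A minus Control. The scanner files deposited for the same 4 samples do not hold the values of the table, and their own readings of these genes are given at the end. All 10 listed stromal markers (among them Pdgfra, Pdgfrb, Cxcl12 and Col1a1) were above the floor on all 4 arrays. Their summed intensity was 575 and 869 in Control cells against 1350 and 1470 in Wnt3A cells. Such sums are weighted to the brightest genes, and the values of single markers are not given here. The summed intensity of 6 adipocyte markers was 809 and 1010 with vector alone and 114 and 78.8 with Wnt3A, with all 6 above the floor on every array. For 6 osteoblast markers it was 30.9 and 23.7 against 117 and 112, with 3 above the floor on all arrays and Dmp1 on none. Of the 5 tested, 3 (Sp7, Alpl and Ibsp) rose in limma at an adjusted p under 0.05. Fewer were above the floor on all arrays than were tested, so some of these calls may rest on values under the floor. No marker of the other cell types passed. For 5 smooth muscle markers it was 368 and 427 against 630 and 649, with all 5 above the floor on every array. For 8 macrophage markers, all above the floor, it was 11.3 and 8.75 against 10.7 and 7.74. For 5 endothelial markers it was 1.18 and 2.2 against 1.21 and 0.869, with Kdr and Tek above the floor on no array. The part of these shifts in the differences below was not tested.

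The array oligonucleotides were 60 bases long, and for 3 genes their first 30 bases are shown because they define what was measured for Efemp1 and because Fbn1 and Fbln1 were each read by a pair of separate probes. Positions are on mouse build mm8, read from the annotation of the array. The Efemp1 probe lies at chr11:28826538-28826597 on the plus strand, the Fbn1 probes at chr2:124992959-124993018 and chr2:124992432-124992491 on the minus strand, and the Fbln1 probes at chr15:85113190-85113250 and chr15:85113334-85113393 on the plus strand.
Efemp1 probe A_51_P337412: tatctagtgaaacttggattctttcctgca
Fbn1 probe A_52_P224801: ccagagaccaaataattaaatgaaaaagca
Fbn1 probe A_51_P467224: tcacttatgagtatggtgcagtacatgtaa
Fbln1 probe A_51_P154417: aattttgttcccttttctacctgtgagcta
Fbln1 probe A_52_P588483: ttttttaaccaacggggctctttgtgtttc
The Fbn1 probes start 527 bases apart on the transcript and the Fbln1 probes 140 bases apart, so neither pair shares sequence. Further single probes lie at chr19:5481762-5481821 (Efemp2), chr6:91237628-91237687 (Fbln2), chr5:134987886-134987945 (Eln), chr11:61304789-61304848 (Mfap4) and chr6:122494539-122494598 (Mfap5).

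Among the fibulins, Efemp1 differed most between the groups. Efemp1 encodes fibulin-3, a short fibulin of basement membranes and connective tissue. Its intensity was 58.3 and 93.3 in Control cells against 0.345 and 0.471 in Wnt3A cells. Both Wnt3A arrays lay far below both Control arrays, and the lowest Control value was 129-fold above the highest Wnt3A value after scaling. In the Wnt3A arrays the signal still stood above the estimated floor, at 6.48 and 6.46 times. The mean fell from 3.92 ± 0.40 to -3.59 ± 0.29 (log2, SD, n = 2 arrays per group), a difference of -7.51 ± 0.38 (SE) or 182-fold, with an interval of -8.53 to -6.48 (95%, limma) and an adjusted p of 0.0245 over all probes. By size this was the 22nd largest difference among 22859 genes tested. The direction was kept, and the call was lost, when any 1 array was left out. The difference was then -7.79 without Control replicate 1 (limma adjusted p 0.176), -7.22 without Control replicate 2 (0.19), -7.30 without Wnt3A replicate 1 (0.147) and -7.71 without Wnt3A replicate 2 (0.192), and these fits called 0 genes of any kind, with 2281 to 2822 at an unadjusted p under 0.05.

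Efemp2 encodes fibulin-4, which brings lysyl oxidase to tropoelastin, and is the closest relative of Efemp1 among the genes here. Its intensity was 20.1 and 36.7 with vector alone and 27.0 and 38.4 with Wnt3A, so the groups overlapped. The difference was 0.26 ± 0.42 (log2, SE), with an interval of -0.89 to 1.41 and an adjusted p of 0.856 in limma. Without Control replicate 1 it was -0.12. The difference of Efemp1 minus that of Efemp2 was -7.76 on the same arrays.

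Fbln1 encodes fibulin-1, a longer fibulin that binds fibronectin and basement membrane proteins. The probe that stood for the gene gave 1.02 and 2.16 in Control cells against 2.51 and 4.10 in Wnt3A cells. The other probe gave 1.08 and 1.55 against 3.20 and 4.03. With both probes the 2 Wnt3A arrays lay above the 2 Control arrays. The differences were 1.12 ± 0.50 and 1.49 ± 0.34 (log2, SE), and the limma adjusted p values of 0.447 and 0.202 did not pass. The first depended on single arrays, with 0.64 without Control replicate 1 and 0.78 without Wnt3A replicate 2.

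Fbln2 encodes fibulin-2, which binds fibrillin-1 and basement membrane components. It was 90.4 and 116 with vector alone and 45.1 and 45.7 with Wnt3A. The groups did not overlap, and the 2 Wnt3A arrays differed by only 1.01-fold after scaling. The difference was -1.16 ± 0.31 (log2, SE), or 2.24-fold lower, with an interval of -1.99 to -0.33. It did not pass over all probes (limma adjusted p 0.246).

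Fbln5 encodes fibulin-5, which links elastin to cell surface integrins. It was the 1 gene of the 10 that could not be tested. Its first probe, on chr12:102147718-102147777, read 0.0752 and 0.0607 in Control cells against 0.0121 and 0.119 in Wnt3A cells. It was above the floor in Control replicate 1 and Wnt3A replicate 2 only, at 1.07 and 1.63 times the floor, and Control replicate 2 missed it at 0.962 times. Its other probe, at chr12:102165542-102165601, read 0.0148 to 0.016 and was below the floor on all 4 arrays. No direction is given for Fbln5.

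Fbn1 encodes fibrillin-1, the main microfibril protein of adult connective tissue. By the probe that stood for the gene it was 10 and 29.5 with vector alone and 1.79 and 0.183 with Wnt3A. The other probe gave 8.29 and 17.5 against 1.81 and 0.0845. Both probes thus placed both Wnt3A arrays below both Control arrays, and both placed Wnt3A replicate 2 far below Wnt3A replicate 1, by 9.97-fold and 21.9-fold after scaling. In Wnt3A replicate 2 the probes stood at only 2.51 and 1.16 times the floor. The Control arrays differed by 2.74-fold and 1.96-fold. The difference was -4.90 ± 1.27 (log2, SE) and -4.94 ± 1.58, or 29.8-fold and 30.6-fold lower, and neither passed (limma adjusted p 0.24 and 0.317). The size rested on single arrays, with -3.24 without Wnt3A replicate 2 and -6.56 without Wnt3A replicate 1 for the first probe.

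Fbn2 encodes fibrillin-2, the fibrillin most associated with developing tissue. It read 23.4 and 20.9 in Control cells against 22.0 and 26.4 in Wnt3A cells, and the groups overlapped. The difference was 0.13 ± 0.32 (log2, SE), with an interval of -0.73 to 0.997 and a limma adjusted p of 0.906. That interval excludes a fall of the size seen for Fbn1, and the difference of Fbn1 minus that of Fbn2 was -5.03.

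Eln, the elastic core protein itself, was uneven between arrays. It was 0.251 and 0.595 with vector alone and 0.752 and 0.194 with Wnt3A, so the highest and the lowest value were both in the Wnt3A group. It was above the floor on all 4 arrays, at 2.66 to 14.1 times. The difference was -0.01 ± 0.84 (log2, SE), with an interval of -2.26 to 2.25, so a shift of up to about that size in either direction could not be seen. Leaving out 1 array moved it from -1.0 (without Wnt3A replicate 1) to 0.99 (without Wnt3A replicate 2), with -0.58 without Control replicate 1 and 0.57 without Control replicate 2.

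Mfap4 encodes a microfibril-associated glycoprotein that binds elastin and fibrillin-1. It was the steadiest in the Control arrays, at 2.66 and 2.76, with 2.31 and 3.30 in the Wnt3A arrays on either side of them. Its difference was 0.04 ± 0.34 (log2, SE), with an interval of -0.88 to 0.95. Mfap5 encodes the microfibril-associated glycoprotein MAGP-2. It read 0.140 and 0.185 in Control cells against 0.139 and 0.0898 in Wnt3A cells, all close to the floor, at 1.23 to 2.93 times. Its groups just missed overlapping after scaling, by 1.02-fold, and its difference of -0.52 ± 0.39 (SE) did not pass in limma (adjusted p 0.652). Mfap4 did not pass either (0.982).

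**Figure D1:**
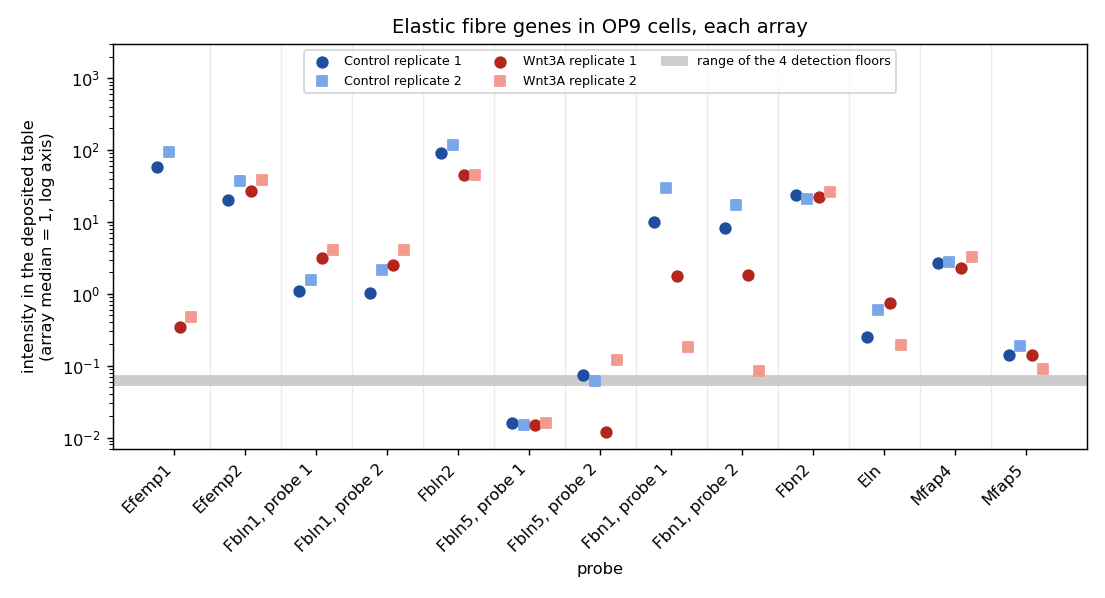
Intensity in the deposited table (log axis, array median 1) of each of the 13 probes on each array, with blue points for the 2 Control arrays, red points for the 2 Wnt3A arrays and a grey band for the range of the floors (0.0533 to 0.0729). Efemp1 drops from 58.3 and 93.3 to 0.345 and 0.471, both Fbn1 probes spread widely in the Wnt3A arrays, and Fbn2, Efemp2 and Mfap4 overlap between the groups.

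Of the 9 genes that could be tested, 1 fell (Efemp1) and 0 rose at a limma adjusted p under 0.05, where 0.241% of all genes tested fell, 0.402% rose and 0.643% changed either way. At an unadjusted p under 0.05 there were 3 of the 9 (Efemp1, Fbln2 and Fbn1), against 12.7% of all genes. The groups did not overlap for 5 of the 9, lower for Efemp1, Fbln2, Fbn1 and Mfap5 and higher for Fbln1, against 45.2% of all genes tested. By sign 4 were higher and 5 lower, and the median difference of -0.01 was the same as that of all genes tested. Since the genes were chosen with this comparison in view, nothing is read from these counts. A size above 1 (log2) was reached by 4 of the 9, against 20.1% of all genes.

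**Figure D2:**
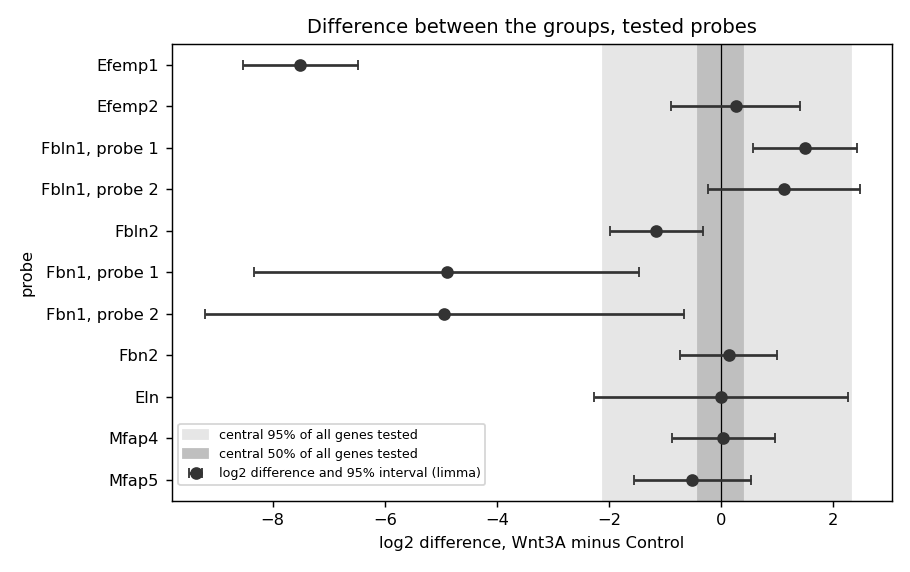
Log2 difference (Wnt3A minus Control) of the 11 tested probes with 95% intervals from limma (n = 2 arrays per group), numbered along the transcript where a gene has 2, over grey bands for the central 95% (-2.11 to 2.31) and 50% (-0.42 to 0.39) of all genes tested. Efemp1 and both Fbn1 probes lie outside the wide band, and the Fbn1 intervals are the widest.

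By Euclidean distance over the 4 log2 values, each centred on the gene's own mean, the 5 genes most like Efemp1 were Meg3 (distance 0.303), Ces1f (0.508), Mme (0.522), the unnamed transcript NAP048198-1 (0.634) and Id4 (0.731). Likeness over 4 arrays mainly reflects the size of the difference between the groups. Meg3, a long noncoding RNA, was 147 and 219 with vector alone and 0.847 and 0.907 with Wnt3A. The other 4 read 1.75 to 3.23 in the Control arrays and were below the floor in both Wnt3A arrays, so their distances rest on values under the floor.

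Start-site sequence in RefSeq (GRCm38.p6) matched 6 of the 10 genes in 10 windows. It is shown for Efemp1 and Fbn1, the pair with the largest differences, from 250 bases before the start to the outer limit of the gene, and for 30 bases around each match to a TCF/LEF core, the sequence bound by the nuclear partners of beta-catenin. Capitals mark the match. The Efemp1 stretch is chr11:28852955-28853153 on the plus strand, the Fbn1 stretch chr2:125506486-125506688 on the minus strand, the Fbln2 stretch chr6:91212514-91212543 on the plus strand and the Fbln5 stretch chr12:101818550-101818579 on the minus strand.
Efemp1: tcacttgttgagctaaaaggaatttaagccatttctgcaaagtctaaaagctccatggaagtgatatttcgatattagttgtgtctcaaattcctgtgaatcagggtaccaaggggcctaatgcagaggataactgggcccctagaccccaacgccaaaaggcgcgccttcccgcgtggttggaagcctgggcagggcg
Fbn1: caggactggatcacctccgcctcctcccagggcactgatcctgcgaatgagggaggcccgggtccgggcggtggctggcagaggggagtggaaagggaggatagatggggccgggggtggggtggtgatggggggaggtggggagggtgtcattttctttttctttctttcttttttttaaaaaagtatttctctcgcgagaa
Fbln2: tccctgggcagCTTTGAgcctgggtacctc
Fbln5: gctgcgcccatcTCAAAGtcttcgtttggg
The cores CTTTGA and CTTTGT were searched on both strands in the 250 bases before each start, and since they differ only in the last letter they cannot match at the same place. At least 1 core was found in 2 of the 10 windows, against 27.6% of 32851 windows of all genes. CTTTGA lay 239 bases before the Fbln2 start and 83 bases before 1 of the 2 Fbln5 starts, on the opposite strand in Fbln5. It was present in 13.8% of all windows, and CTTTGT, which no window of these genes held, in 16.5%. The letters TATAAA were in 0 of the 10 windows and in 12.4% of all. The Efemp1 window was 53.6% G or C with 10 CG pairs and the Fbn1 window 59.2% with 13, against a median of 52.4% and 6. A match describes letters only, and the absence of one says nothing of sequence outside these windows.

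The wider pathway was read from 7 lists of 83 gene symbols outside the 10, with Thsd4 also under its other name, Adamtsl6. Of the symbols, 75 could be tested. Of these, 2 rose and 2 fell in limma over all genes, all 4 among the matrix partners of elastic fibres, where 0.402% of all genes tested rose and 0.241% fell. The genes were listed with earlier results known, and the median difference was 0.04 against -0.01 for all genes tested. The count was 7 with trend and robust settings, 2 when a probe had to clear the floor everywhere and 1 with no filter on dim probes. It was 0 with the replicate block and 0 in the scanner files, so these ended all 4 calls.

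The 4 that passed are partners rather than parts of the fibre. Nid1, a basement membrane linker that binds fibulins, fell by 5.19 ± 0.30 (log2, SE), from 7.48 and 8.22 to 0.208 and 0.22. Tnxb, the matrix glycoprotein tenascin-X, fell by 3.42 ± 0.32 (adjusted p 0.048), from 20.7 and 17.2 to 1.81 and 1.69, and 1 of its 2 probes passed. Nid2, the sister of Nid1, went the other way, from 1.07 and 1.19 to 16 and 14.5, and rose by 3.76 ± 0.30. Dcn, the collagen-binding proteoglycan decorin, rose by 5.94 ± 0.45, from 0.237 and 0.211 to 9.65 and 19.4. Only 1 of the 2 Dcn probes was tested, as the other did not clear the floor on both arrays of either group. The limma adjusted p was 0.0279 for Nid1, 0.0369 for Nid2 and 0.0348 for Dcn, and 0 of these 4 passed when any 1 array was left out. Over the 11 tested partners the median was -0.16, with 4 higher and 7 lower by sign. Col15a1 (-1.78), Col18a1 (-1.65) and Bgn (-0.29) had the largest differences among the partners that did not pass, did not overlap and were detected on all arrays.

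Microfibril and latent TGF-beta binding proteins were the list closest to the fibrillins. Of 17 tested, 0 passed, 6 were higher and 11 lower by sign, and the median was -0.36. Thsd4, also known as ADAMTSL6 and a fibrillin-binding protein, was 0.473 and 1.19 in Control cells against 14.6 and 21.8 in Wnt3A cells. Its difference was 4.58 ± 0.55 (log2, SE) and just missed the threshold in limma (adjusted p 0.0724). Emilin2 (-1.48) and Emilin1 (1.29), glycoproteins found at the interface of elastin and microfibrils, differed in opposite directions, and neither passed (0.467 and 0.266).

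The cross-linking enzymes and chaperones had 0 of 12 past the threshold and a median of 0.09. Lox, the enzyme that cross-links elastin and collagen, read 2.98 and 8.17 with vector alone and 9.49 and 12.7 with Wnt3A (1.17 ± 0.56, SE). Loxl1, its relative required for elastic fibre renewal, read 5.74 and 9.67 against 2.95 and 3.86 (-1.13 ± 0.39). Lox and Loxl1 thus stood on opposite sides of 0, with limma adjusted p of 0.483 and 0.34. Atp7a, the copper transporter that supplies lysyl oxidases, differed by -1.38 (0.191), and by -0.18 when its probes were averaged.

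Among 15 tested proteases and inhibitors that act on elastin or its surroundings, 0 passed and the median was 0.17. Timp3, a matrix-bound metalloprotease inhibitor that also binds fibulin-3, came closest. It was 8.80 and 9.59 in Control cells against 156 and 98.9 in Wnt3A cells, a difference of 3.77 ± 0.38 (log2, SE) with a limma adjusted p of 0.0532. Ctsk, the elastin- and collagen-degrading cathepsin K, differed by 2.34 (0.171) and Mmp14, a membrane-bound metalloprotease, by 1.22 (0.219).

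Of the 10 integrin subunits tested, 0 passed, with a median of 0.13. Itga9 (1.28), Itgb5 (1.11) and Itga5 (1.0) had the largest differences without overlap among those detected on all arrays. Of 8 TGF-beta family ligands, 0 passed and the median was 0.33. Inhba, which encodes the activin A subunit, was 0.66 and 2.25 with vector alone and 27.8 and 12.9 with Wnt3A (3.97 ± 0.75, SE, limma adjusted p 0.146). Tgfb2 was 0.122 and 0.197 against 1.40 and 2.77 (3.68 ± 0.48, 0.082), and Bmp4 differed by 1.01 (0.29). Of the other fibulins and hemicentins, 2 could be tested, named here after their values were seen. Fbln7 overlapped between the groups (0.08). Hmcn1, a very large fibulin relative, did not clear the floor with vector alone and read 1.07 and 0.102 with Wnt3A. It thus entered the fit through the Wnt3A arrays alone. No difference is printed for it, though it is counted among the tested genes and drawn in the figure that follows.

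**Figure D3:**
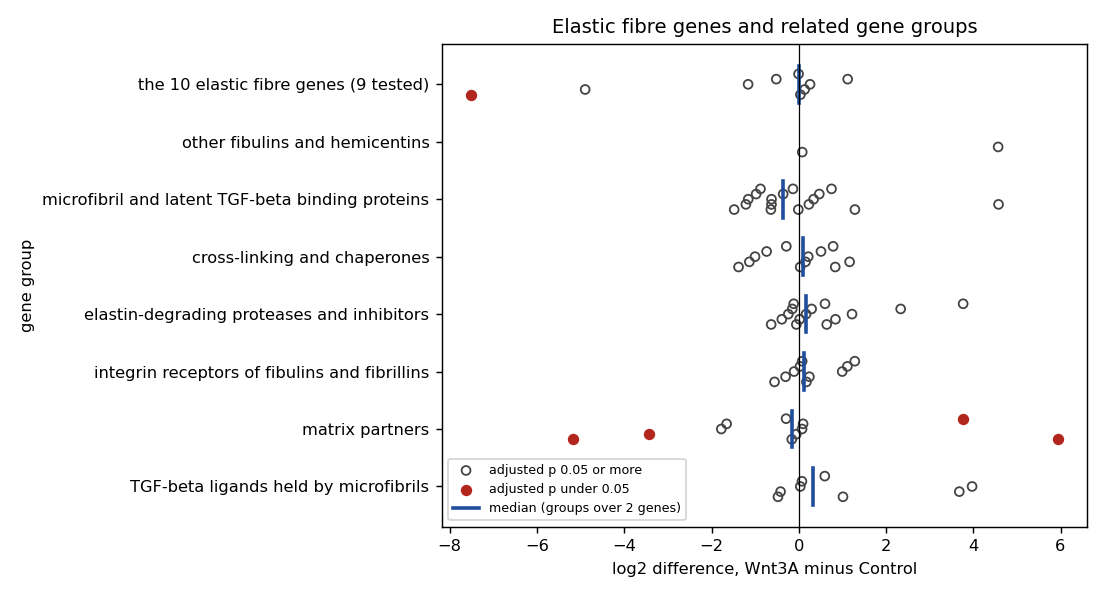
Log2 difference (Wnt3A minus Control) of each tested gene in the 10-gene set and in the 7 related lists, with filled red points for a limma adjusted p under 0.05 and blue bars for medians. Efemp1 and 4 matrix partners are the filled points, and the medians lie between -0.36 and 0.33. The list with 2 genes has no bar, since medians were drawn only for groups of more than 2 genes. Hmcn1 in it is drawn although it was under the floor in both Control arrays.

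The scanner files gave another picture of the same genes. The rank correlation of each table column with the scanner file of its own sample was 0.637, 0.826, 0.684 and 0.746 over all spots, and every column was closest to the file of Control replicate 2 (0.826 to 0.845). The cause of this mismatch was not tested. The file of Control replicate 1 was faint, with 41.8% of spots well above background against 71.6% to 85.7% in the others. The Efemp1 probe was well above background in 1 scanner file only, that of Wnt3A replicate 1, at 16.9. It read 2.28 and 9.06 in the Control files and 8.83 in the other Wnt3A file, and it was not tested. These scanner readings are unscaled, and the medians of the files ran from 7.32 to 178. After division by the 75th percentile Efemp1 was -3.82 and -6.34 (log2) for Control against -5.02 and -6.24 for Wnt3A, overlapping. The high Control signal of the table was not seen in the scanner files. Fbn1 by its first probe was 15.6 and 63.2 for Control against 251 and 21.2 for Wnt3A, unscaled and overlapping. After scaling its groups still overlapped, and the difference of -0.77 had the sign of the table. Fbln2 was 3.42 and 49.1 for Control against 120 and 392 for Wnt3A, which is the reverse of the table. Of the 9 genes tested in the table, 4 had the same sign in the scanner files (Efemp1, Mfap5, Fbn1 and Eln) and 5 the opposite one. Of the 4, Efemp1 and Mfap5 were well above background in only 1 and 2 scanner files and could not be tested there. Eln was near 0 in the table (-0.01). In the scanner files 7 of the elastic fibre genes could be tested, and 0 passed in limma, with 0 at an unadjusted p under 0.05. Of the 22 listed genes named above, 15 had the opposite sign in the scanner files, among them Tnxb (0.47) and Nid2 (-0.24) of the 4 that passed in the table, and also Thsd4 (-0.32), Timp3 (-1.15), Ctsk (-1.6), Inhba (-1.44) and Tgfb2 (-1.88). Leaving out the faint file of Control replicate 1 also gave 0 on both counts for the elastic fibre genes.

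**Figure D4:**
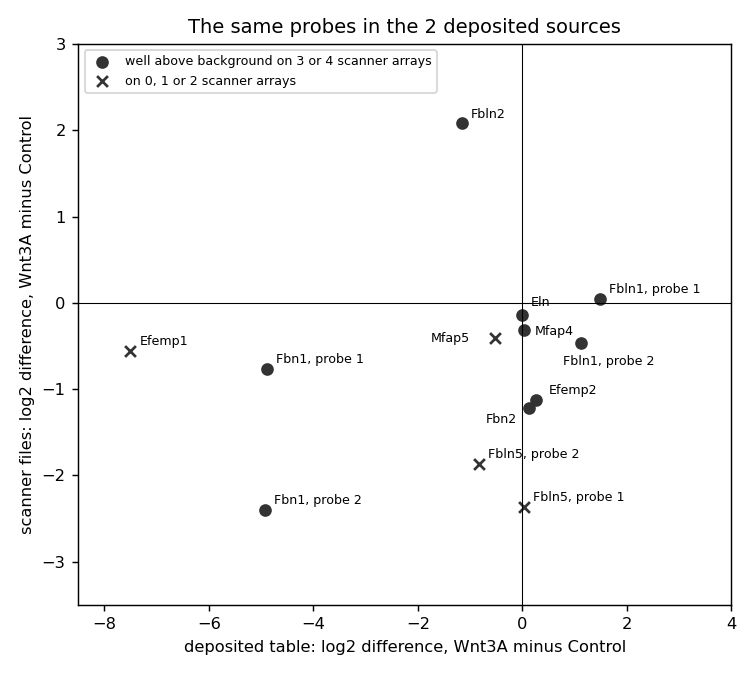
Log2 difference (Wnt3A minus Control) of the 13 probes in the deposited table (horizontal) and in the scanner files (vertical), each after subtraction of the 75th percentile of the array, with crosses for probes well above background on fewer than 3 scanner arrays. Efemp1 is at -7.51 in the table and at -0.55 in the scanner files, where it was near background, and Fbln2 changes sign from -1.16 to 2.08.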

How the data were processed

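RNA of 2 Control and 2 Wnt3A samples was measured on 1-colour arrays. The authors deposited a table of linear intensity values (43379 non-control spots, each column with a median of 1, the scaling not given in the sources used here) and 1 scanner file per sample. The scanner intensity values come from Feature Extraction 10.5.1.1, per the file headers, with other 0 or 1 flags as deposited, from 1 slide and 1 scan. The table was set as the main source in advance, joined by feature number. The scanner files do not match it, and which of the sources is right was not tested. The members and lists were chosen with earlier results of these data known. Spots of a probe were averaged on the log2 scale after subtraction of the 75th percentile. The floor was 4.94 times the 1st percentile of each column, 4.94 being the median over the scanner files (4.85 to 4.99) of the lowest signal well above background divided by the 1st percentile. Whether this factor from the scanner files holds for the table was not tested. A probe was tested if both arrays of a group cleared the floor (33709 probes) with limma 3.58.1 in R 4.3.3, two-sided, with Benjamini-Hochberg adjustment over probes and a threshold of 0.05. A gene was shown by its brightest kept probe. The residual degrees of freedom were 2, with 2.29 from the prior. The fit was tested on simulated data. An exact test of 2 against 2 arrays cannot give a two-sided p below 0.333. Named genes were the 10 members, every listed gene past the threshold and, in lists with fewer than 6 of these, up to 3 with the largest differences among those without overlap and above the floor on all arrays. Current symbols came from RefSeq for 24375 probes by accession and 8727 by symbol, and 8072 kept the name in the file. The number of arrays limits the precision. Alternatives covered scaling, floor, filter, probe choice, limma settings, source, replicate block and left-out arrays.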

Additional observations from a re-analysis of the deposited data

How the results depend on the processing

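Without any further scaling, with quantile normalization, a floor 2 times as high, no filter on dim probes, only probes clearing the floor on every array, values below the floor set to it, the mean of a gene's probes, or trend and robust settings, the table called the same 1 gene of the 10. The count was 0 in the scanner files (processed signal, and normexp with quantile normalization). Efemp1 did not clear the filter there and was not tested, so that count says nothing of its call. The related lists gave 4 genes, and 1 with no filter, 2 with all 4 arrays above the floor, 7 with trend and robust settings, 0 in both scanner settings and 0 to 0 with 1 array left out. All genes gave 147, and 35 with no filter, 34 with all 4 arrays above the floor, 226 with the mean of probes, 233 with trend and robust settings, 2 and 0 in the scanner files (480 and 319 at an unadjusted limma p under 0.05) and 0 to 0 with 1 array left out. The causes were not tested.

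The direction of Efemp1 was kept in all 13 alternatives of the table (-7.79 to -7.22), and it was called in 8. In the scanner files (processed signal, then normexp where reversed) Efemp2 was -1.12 and -0.39, Fbln1 -0.47, Fbln2 2.08 and 0.98, Fbn2 -1.22 and -1.27, and Mfap4 -0.32 and -0.31, and with normexp Eln was 0.12 and Fbn1 0.0049. With quantile normalization of the table Eln was 0.0031. With 1 array left out Efemp2 ran from -0.12 to 0.64, Eln from -1.0 to 0.99, Fbn2 from -0.0031 to 0.27 and Mfap4 from -0.21 to 0.28. The scanner files without the faint Control replicate 1, chosen after seeing the data, called 0 of the 10 genes, 0 listed genes and 0 genes (413 unadjusted), and gave Efemp2 -0.81, Fbln1 -0.14, Fbln2 2.41, Eln 1.18, Fbn1 0.48 and Mfap5 0.62, while Fbn2 (0.38) and Mfap4 (0.74) had the sign of the table again.

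The groups share replicate numbers, but over the kept probes same-numbered arrays did not deviate together (r = 0.0124), and the main fit used no pairing. With 2 arrays per group both pairs give the same value, and a pairing limited to some genes was not tested. The replicate block called 0 of the 10 genes, 0 listed genes and 0 genes, with 2737 at an unadjusted limma p under 0.05 and an adjusted p of 0.0978 for Efemp1. A slide or scan block was not run, because the scanner files name 1 slide and 1 scan. Since these files do not hold the values of the table, the slide and scan behind the table are not known. The depth of signal limits Fbln5, Mfap5 and Fbn1 in Wnt3A replicate 2, which lay near or below the floor.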
